A study of Mus musculus with 16 samples.

Results

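The small leucine-rich proteoglycans (SLRPs) are a family of secreted matrix proteins, and 10 of their genes were followed by name in periodontal ligament: Dcn (decorin), Bgn (biglycan), Aspn (asporin), Fmod (fibromodulin), Lum (lumican), Kera (keratocan), Omd (osteomodulin), Prelp, Ogn (osteoglycin) and Podn (podocan). These were 10 of 55359 genes in the count table, chosen for belonging to the family but with earlier results of these data known. All 10 were among the 20953 genes that passed the filter on low counts. SLRP core proteins fold into curved leucine-rich repeats that bind collagen, and many carry dermatan, chondroitin or keratan sulfate chains. On the collagen fibril they govern how thick fibrils grow and how they are spaced, and away from it they bind growth factors such as transforming growth factor beta and receptors of the innate immune system. The periodontal ligament, the collagen sheet that hangs the tooth in its socket, is a known site of high asporin, which restrains bone morphogenetic protein signalling and mineralisation there.

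RNA sequencing was done on periodontal ligament of 9-week-old male wild-type C57BL/6J mice in 4 groups of 4 libraries. Control mice (Co) were untreated. Mice of the ligature group (Li) carried a silk thread tied around the upper left second molar, a model of periodontitis. In the trauma group (Tra) that molar was raised with composite resin on its chewing face, so that it met the opposing teeth too hard, and the last group, ligature plus trauma (LiTra), had both. Time under treatment is not given in the labels, nor is whether a library is 1 mouse, so p-values measure the spread between libraries, which may be partly technical. Bone tissue is named in the series title, whereas every library is labelled periodontal ligament.

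Libraries held 58458102 to 77468584 counts. The ligament marker Postn, a matrix protein of loaded connective tissue, was high in every group, in scaled counts relative to the library total (CPM, the field's depth-normalised read count). Its group means were 21049 ± 11314 CPM for control, 14999 ± 5719.54 for ligature, 19199 ± 9068 for trauma and 21304 ± 4639 for both treatments (SD, n = 4). Postn does not stand for the other ligament and tendon markers. All 6 on that list had negative log2 fold changes in ligature against control, and 2 passed as lower. Thbs4, for example, held 970 ± 162 CPM in control and 127 ± 69.8 in ligature. The bone marker Ibsp was also present throughout, from 5964 ± 1778 CPM in control to 7846 ± 904 in ligature. It does not stand for the other bone markers: of 8, 6 had negative log2 fold changes in ligature against control and 2 positive ones. Bglap, for example, held 2222 ± 918 CPM in control and 363 ± 153 in ligature. Control 1 stood apart: its 6 ligament and tendon markers summed to 6949 CPM, the lowest of the 16 libraries. Ligature 2 and ligature plus trauma 2 and 3 were shifted to short transcripts, judged by the length of each gene's merged exons. The rank correlation of expression with that length was 0.230 to 0.270 in them against 0.319 to 0.437 in the other 13. Results that rest on these libraries are given below with and without them.

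Compared per kilobase of the main transcript, the control ligament was dominated by 3 members. Aspn had a mean of 4662 CPM per kb, Lum 3312 and Dcn 3309, the last pair too close to order against their spread. Omd followed at 1062, Bgn at 672 and Ogn at 595 CPM per kb, then Fmod at 84.8, Prelp at 15.6 and Podn at 10.6. Kera, a keratan sulfate proteoglycan best known from the cornea, was not counted in any control library. The order depends on the length used for Dcn: over all its merged exons the Dcn mean was 997 CPM per kb, behind Omd. Together the 10 members took 1.69 to 4.08% of all counts in control libraries. The range was 1.35 to 2.78% with the ligature, 1.71 to 2.99% with trauma and 1.46 to 2.72% with both.

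**Figure D1:**
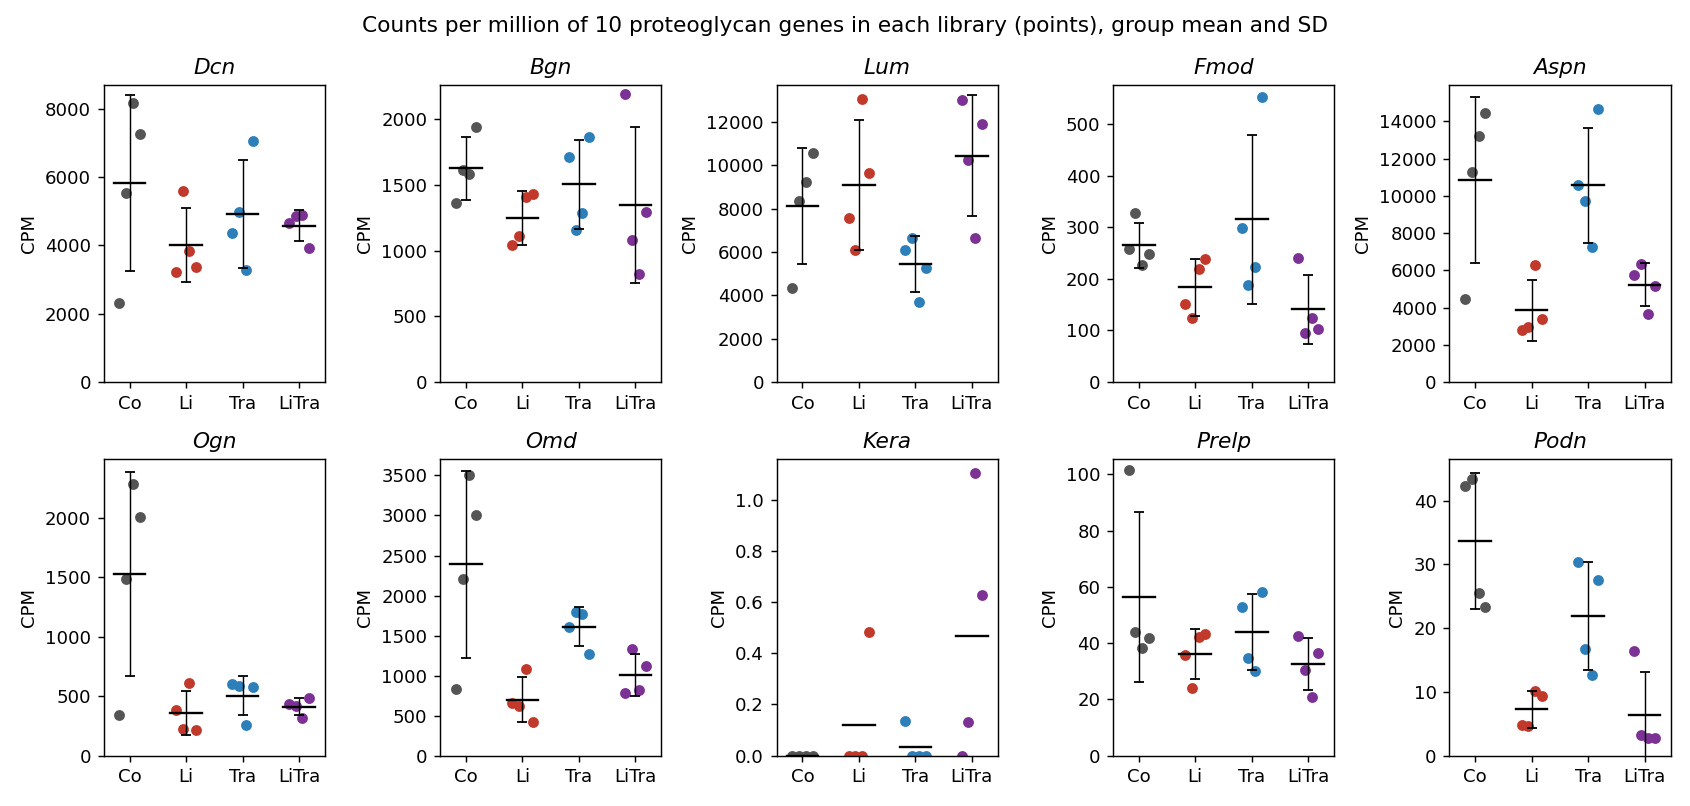
Each panel plots 1 gene's CPM (y axis, from 0) in each library by group, with Co for control, Li for ligature, Tra for trauma and LiTra for both. Points are libraries, horizontal lines group means and bars the SD (n = 4), with bars cut at 0 and no bar for Kera; Aspn, Omd and Podn sit lower in most libraries with a ligature, and Lum does not.

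The first comparison asked what the ligature changed on a tooth with normal load. Aspn, Ogn, Omd and Podn were lower in ligature than in control, by 2.82 to 4.62 times in the fitted fold changes, and the other 6 members did not pass. So 4 of 10 members passed, all lower, where 10.7% of the 20953 genes passed in either direction and 4.78% passed as lower (edgeR quasi-likelihood test, Benjamini-Hochberg adjusted p under 0.05 over all genes tested). The median log2 fold change was -0.59 over the 10 members and -0.05 over all genes tested.

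Among the class I members, which also include decorin and biglycan, asporin changed. The control libraries held 4469, 11288, 13233 and 14440.0 CPM of Aspn and the ligature libraries 2794, 2937, 6300.15 and 3366. Ligature 3 lay above control 1, and the other 3 ligature libraries lay below every control library. This gave a log2 fold change of -1.496 ± 0.37 (SE, adjusted p = 0.0172 by edgeR).

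Dcn, the decorin gene, whose protein binds collagen and transforming growth factor beta, held 2313, 5537, 8163 and 7259 CPM in control and 3231, 5578, 3844 and 3361 in ligature. Control 1 was the lowest of all 8 libraries and the other 3 control libraries lay at the top of the ligature range or above it. Its log2 fold change was -0.54 ± 0.33 (SE), which did not pass (adjusted p = 0.319 by edgeR). Without control 1 and the 3 libraries shifted to short transcripts, an alternative chosen after seeing the data, it was -1.01 with an adjusted p of 0.0356 by edgeR. Bgn, the gene of biglycan, a ligand of toll-like receptors when released from matrix, held 1366 to 1941 CPM in control and 1039 to 1432 in ligature, overlapping, with a log2 fold change of -0.38 ± 0.27 (SE, adjusted p = 0.397 by edgeR).

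Osteomodulin, a class II member that binds bone mineral and cells through integrins, gave a call that held throughout. Omd stood at 838, 2207, 3503 and 3008 CPM in control and at 660.2, 618, 1088 and 423 CPM in ligature. Again only control 1 fell within the ligature range. Omd's log2 fold change was -1.78 ± 0.38 (SE, adjusted p = 0.00748 by edgeR), and Omd passed in all 26 alternatives fitted for this comparison.

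Osteoglycin, the class III member, also known as mimecan and found in bone and other connective tissue, also fell. Ogn stood at 340.4, 1486, 2281 and 2003 CPM in control and at 383, 220.15, 613 and 213 CPM in ligature. The 3 higher control libraries lay well above all ligature libraries, while control 1 lay among them. Ogn's log2 fold change was -2.10 ± 0.48 (SE, adjusted p = 0.0124 by edgeR).

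Podocan, a class V member that binds collagen and slows the growth of smooth muscle cells, is scarce in this tissue but separated the groups. Podn held 42.4, 43.4, 25.6 and 23.4 CPM in control and 4.84, 4.72, 10.2 and 9.40 CPM in ligature. Every ligature library lay below every control library, and Podn was the only member of the 10 for which this held. That is close to the share over all genes tested, of which 9.15% were lower without overlap. For Podn the log2 fold change was -2.21 ± 0.55 (SE, adjusted p = 0.0185 by edgeR).

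The remaining class II members did not pass. Lum, whose protein holds fibrils apart and keeps the cornea clear, held 4341, 8341, 9209 and 10545 CPM in control and 7568, 6080.2, 13044 and 9659 CPM in ligature. The groups overlapped over most of their range, and the log2 fold change was 0.16 ± 0.32 (SE, adjusted p = 0.789 by edgeR). Fmod, whose protein helps collagen fibrils mature, had a log2 fold change of -0.53 ± 0.35 and Prelp, whose protein ties collagen to heparan sulfate of basement membranes, one of -0.64 ± 0.33 (SE, adjusted p = 0.356 and 0.235 by edgeR). For Prelp the control mean rested on control 1, at 102 CPM against 38.2 to 44.1 in the other 3, and without control 1 the log2 fold change was -0.19.

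The calls did not all survive every choice of libraries. Without the 3 libraries shifted to short transcripts, Ogn, Omd and Podn passed and Aspn had an adjusted p of 0.0508 by edgeR (log2 fold change -1.40). When control 1 was left out as well, Aspn, Ogn, Omd and Dcn passed and Podn had an adjusted p of 0.0662 (log2 fold change -1.92), and without ligature 1 alone 2 members passed, Ogn and Omd. Aspn also did not pass without control 4, nor Podn without ligature 2.

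The second comparison asked what the ligature changed on an overloaded tooth, ligature plus trauma against trauma. It shares no library with the first. By edgeR 0 of 10 members passed, where 5.48% of genes passed. With edgeR 4 members (Lum, Fmod, Aspn and Podn) had an unadjusted p under 0.05, as 19.4% of genes did. The same 4 passed by DESeq2, which also passed more genes over the whole table than edgeR did (counts in the closing section). The median log2 fold change was -0.36 over the 10 members and -0.02 over all genes tested.

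Aspn held 10594, 9715, 7258 and 14696 CPM in trauma and 5755, 6343, 3643 and 5137 CPM in ligature plus trauma. All 4 libraries with the ligature lay below all 4 without it, as for 7.31% of genes. Its log2 fold change was -1.02 ± 0.36 (SE, adjusted p = 0.126 by edgeR), and side by side with this stands -1.496 on the tooth with normal load.

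Podn held 30.4, 16.8, 12.7 and 27.6 CPM in trauma and 16.4, 3.30, 2.72 and 2.75 in ligature plus trauma. Ligature plus trauma 1 lay inside the trauma range and the other 3 far below it. In log2 terms the difference was -1.79 ± 0.54 (SE, adjusted p = 0.0683 by edgeR). It passed when ligature plus trauma 1 was left out, and was -1.19 with an adjusted p of 0.387 by edgeR without the 3 libraries shifted to short transcripts.

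Lum had a positive fold change. It held 6099.9, 6656, 3695 and 5274 CPM in trauma and 13008, 10230.4, 6625 and 11903 CPM in ligature plus trauma. Only ligature plus trauma 3 touched the trauma range, just below its highest library. The log2 fold change was 0.94 ± 0.32 (SE, adjusted p = 0.108 by edgeR). Without the shifted libraries it was 1.19 with an adjusted p of 0.0966, and without control 1 as well, an alternative chosen after seeing the data, 1.18 with an adjusted p of 0.0351 (edgeR).

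Fmod held 298, 188, 223 and 552 CPM in trauma and 239.7, 94.4, 124 and 103 CPM in ligature plus trauma. The 3 lowest libraries were all of the ligature plus trauma group, and trauma 4 was the highest of all 16. The log2 fold change was -1.17 ± 0.36 (SE, adjusted p = 0.0716 by edgeR). It passed when ligature plus trauma 1 was left out, and was -0.88 with an adjusted p of 0.363 by edgeR without the shifted libraries. Ogn and Omd, which passed on the tooth with normal load, had log2 fold changes of -0.29 ± 0.46 and -0.67 ± 0.37 here (SE, adjusted p = 0.806 and 0.341 by edgeR).

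**Figure D2:**
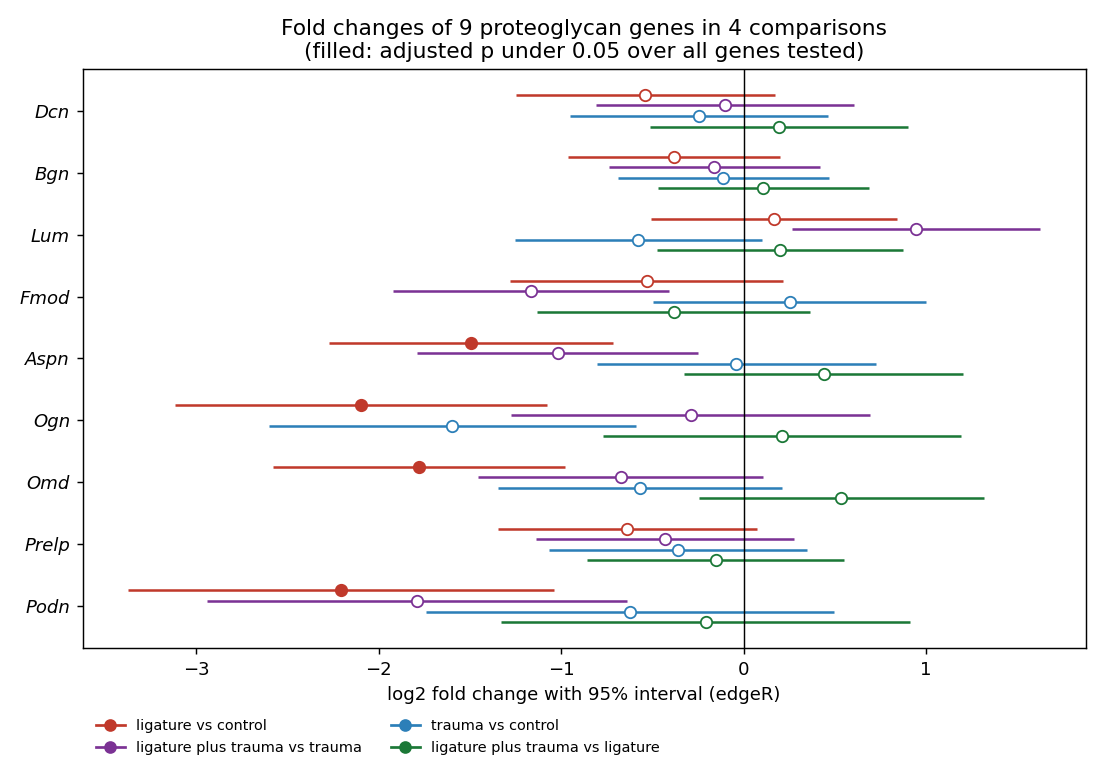
Log2 fold changes (x axis) with 95% intervals from edgeR for 9 members (y axis, Kera left out because most libraries had no count) in 4 comparisons, drawn in 4 colours. Filled points passed at an adjusted p under 0.05 over all genes tested, and only ligature against control has any, for Aspn, Ogn, Omd and Podn.

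Averaged over both loads, 8 libraries with a ligature against 8 without, 5 members were lower and the other 5 did not pass. They were Fmod, Aspn, Ogn, Omd and Podn, 5 of 10 where 21.5% of genes passed and 10.7% passed as lower. The average log2 ligature effect was -1.9996 ± 0.39 for Podn (adjusted p = 0.00187), -1.26 ± 0.26 for Aspn (0.00289) and -1.23 ± 0.26 for Omd (0.00384; SE, edgeR). It was -1.19 ± 0.33 for Ogn (adjusted p = 0.018) and -0.85 ± 0.25 for Fmod (0.0244; SE, edgeR). Aspn, Omd and Podn passed in all 25 alternatives. Without the 3 libraries shifted to short transcripts Ogn was at -1.04 and Fmod at -0.64, and neither passed (adjusted p = 0.118 and 0.158 by edgeR). Without control 1 as well, Ogn passed at -1.21 (adjusted p = 0.0169) and Fmod did not at -0.64 (0.184; edgeR). Fmod also did not pass without control 2 or without trauma 4. Lum had an average log2 effect of 0.55 ± 0.23 (SE, adjusted p = 0.0911 by edgeR), and passed as higher without the shifted libraries at 0.75 (adjusted p = 0.0442). Dcn, Bgn and Prelp had average effects of -0.32, -0.27 and -0.53 (adjusted p = 0.353, 0.337 and 0.118 by edgeR).

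Both treatments together were set against control, which reuses the control libraries of the first comparison. Ogn (-1.89 ± 0.48, adjusted p = 0.0204), Omd (-1.24 ± 0.37, 0.0404) and Podn (-2.41 ± 0.55, 0.0126) passed as lower on the log2 scale (SE, edgeR). That is 3 of 10 members, where 12.5% of genes passed and 5.62% passed as lower. Podn again did not overlap, with 2.72 to 16.4 CPM against 23.4 to 43.4 in control, as for 10.4% of genes. Without the 3 libraries shifted to short transcripts, 2 of which were of the ligature plus trauma group, no member passed, and the log2 fold changes were -1.74 for Ogn, -1.34 for Omd and -1.82 for Podn (adjusted p = 0.165, 0.169 and 0.138 by edgeR). Without control 1 as well, Ogn and Omd passed at -2.08 and -1.63 (adjusted p = 0.0366 and 0.0428 by edgeR). Podn was the 1 member that passed without control 3, without control 4, or without either of ligature plus trauma 2 or 3. Omd passed in 11 of 26 alternatives.

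Overload alone did not move any member past the threshold. Against control, trauma gave 0 of 10 members and 0.00477% of genes passing by edgeR (1 gene), with 1450 genes at an unadjusted p under 0.05, and 0 members passed by DESeq2. Ogn came nearest: its trauma libraries held 598, 589, 259 and 575 CPM against 340.4 to 2281 in control. The trauma values lay below the 3 higher control libraries and around control 1, and the log2 fold change was -1.60 ± 0.47 (SE, unadjusted p = 0.00392, adjusted p = 0.551 by edgeR). Aspn was nearly level at -0.04 with a 95% interval of -0.80 to 0.72, and Lum was at -0.58 with an interval of -1.26 to 0.10 (edgeR).

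Adding overload to a ligature, ligature plus trauma against ligature, likewise gave 0 of 10 members and 0% of genes by edgeR, with 734 genes at an unadjusted p under 0.05. DESeq2 passed 0 members. The log2 fold changes ran from -0.38 for Fmod to 0.54 for Omd among the 9 members other than Kera. For the average trauma effect 0 members passed, where 0.00477% of genes did, with 1185 genes at an unadjusted p under 0.05 and 0 members by DESeq2. For the interaction, the trauma effect with the ligature minus that without it, 0 members and 0% of genes passed by edgeR, with 1032 genes at an unadjusted p under 0.05 and 0 members by DESeq2. The largest interactions were 1.81 ± 0.66 for Ogn and 1.10 ± 0.52 for Omd among the members other than Kera (SE, unadjusted p = 0.0146 and 0.0497, adjusted p = 0.993 and 1 by edgeR).

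Keratocan counts were few. Kera had 35 counts in ligature 4, 10 in trauma 1, and 7, 56 and 41 in ligature plus trauma 2, 3 and 4. The other 11 libraries, all 4 of control among them, had 0, which allows up to 3 counts or 0.0362 to 0.0585 CPM at these depths. No fold change is given for it.

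The make-up of the family differed between libraries with and without a ligature. As a share of the summed CPM per kb of all 10 members, Aspn made up 30.9, 35.2, 32.9 and 35.1% in control and 40.2, 36.9, 39.0 and 44.3% in trauma. It made up 16.99, 16.2, 23.3 and 17.5% in ligature and 20.7, 25.0, 19.7 and 20.9% in ligature plus trauma. All 8 libraries with a ligature lay below all 8 without one in this share. In CPM itself no member was free of overlap between these 8 and 8: Aspn held at most 6343 CPM with a ligature and at least 4469 without one. Over all genes tested 2.05% were lower and 2.57% higher without overlap in CPM.

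The Lum share was higher with a ligature, which in shares of one total goes with the lower Aspn share. It was 28.6, 24.8, 21.8 and 24.4% in control and 22.0, 24.0, 18.9 and 15.1% in trauma. With a ligature it was 43.8, 31.9, 45.9 and 47.8%, and with both treatments 44.5, 38.3, 34.1 and 46.0%. Again the 8 libraries with a ligature and the 8 without did not overlap, and with merged exon lengths the separation held for both genes (Lum 47.0 to 60.3% against 19.8 to 36.1%, Aspn 21.6 to 31.1% against 38.6 to 57.3%). The level of Lum itself overlapped, at 3695 to 10545 CPM without and 6080.2 to 13044 CPM with a ligature. The mean sum of the 10 members was 13724 CPM per kb in control, 8679 in ligature, 11207 in trauma and 10334 in ligature plus trauma. By library these sums overlapped, at 6201.5 to 17655 CPM per kb without and 7062 to 11947 with a ligature.

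The ratio of Lum to Aspn per kb was 0.341 to 0.924 in the 8 libraries without a ligature and 1.53 to 2.73 in the 8 with one. In words, asporin transcripts outnumbered lumican transcripts in every library without a ligature and lumican outnumbered asporin in every library with one, control 1 and the shifted libraries included. This pair was picked after its values were seen, so the ratio is a description without a test. The ratio of Dcn to Aspn was 0.546 to 0.817 without and 0.808 to 2.52 with a ligature, the ranges meeting at ligature 3 and control 3. The ratios of Omd and Ogn to Aspn overlapped, at 0.0895 to 0.274 against 0.130 to 0.245 for Omd and 0.0324 to 0.156 against 0.0574 to 0.124 for Ogn.

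**Figure D3:**
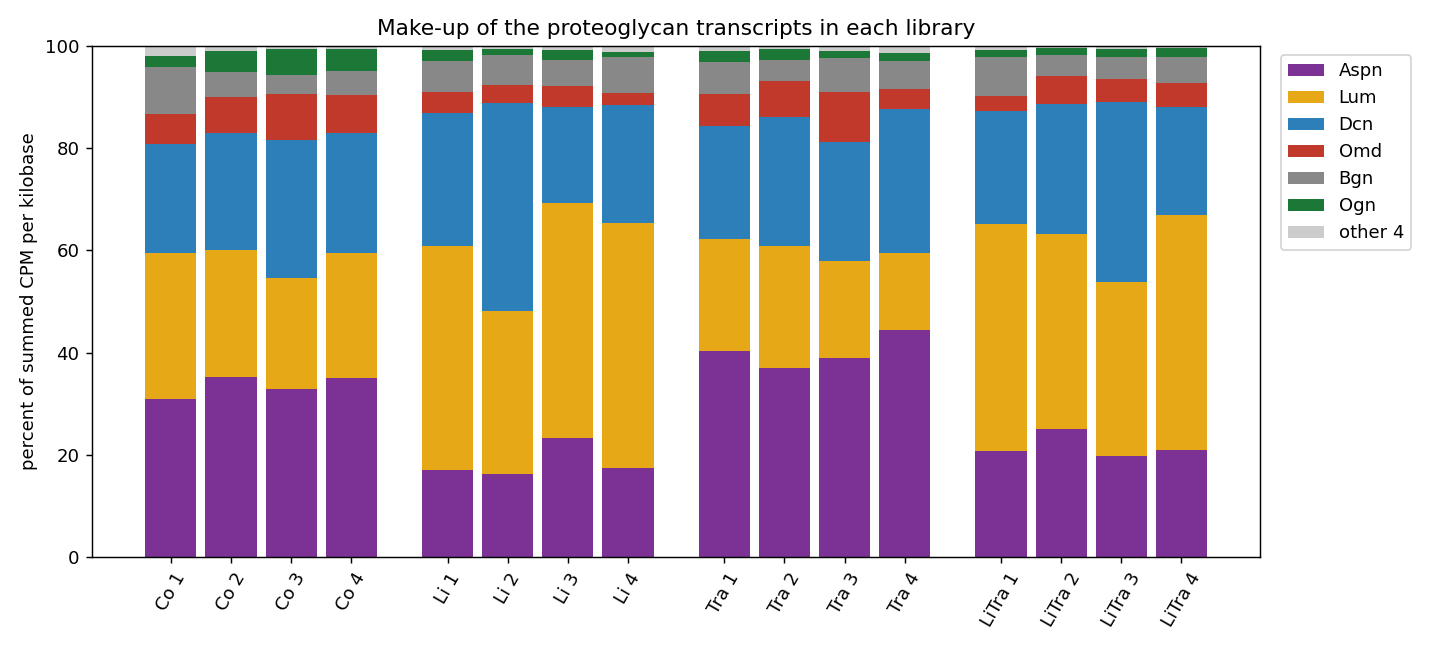
Stacked bars give each member's percent of the summed CPM per kilobase of the 10 genes (y axis, 0 to 100) in each of the 16 libraries (x axis; Co control, Li ligature, Tra trauma, LiTra both). The Aspn share is 30.9 to 44.3% in libraries without a ligature and 16.2 to 25.0% with one, and the Lum share 15.1 to 28.6% against 31.9 to 47.8%.

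Aspn, Omd and Ogn lie side by side on mouse chromosome 13 on the same strand, with Ecm2, another leucine-rich repeat gene, next to them. All 3 lie inside the much longer gene Cenpp, which runs on the opposite strand and encodes a protein of the centromere. Cenpp went the other way, with an average log2 ligature effect of 1.25 ± 0.30 (SE, adjusted p = 0.00855 by edgeR), and Ecm2 did not pass at -0.48 ± 0.28 (SE, adjusted p = 0.233 by edgeR). Exons of Cenpp shared 7 bases with Aspn and 0 with Omd and Ogn in the annotation used. Dcn, Lum and Kera lie together on chromosome 10, Fmod and Prelp on chromosome 1, Bgn on X and Podn on 4. Of Prelp's exon bases 350, or 9.68%, are shared with the antisense gene Gm15851, and since the strand setting of the counting is not given, reads there cannot be assigned.

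Promoters are shown for the 4 members that were lower in the first comparison, 3 of them neighbours, so that their start regions can be set side by side. Each is the 250 bases before the RefSeq start on GRCm38.p6, 5′ to 3′ on the gene's strand, at chr13:49544193-49544442 for Aspn, chr13:49582212-49582461 for Omd and chr13:49607765-49608014 for Ogn (all on the plus strand) and chr4:108031955-108032204 for Podn (minus strand, the first of 2 starts). Capitals mark TATAAA and the E-box CANNTG on either strand.
Aspn: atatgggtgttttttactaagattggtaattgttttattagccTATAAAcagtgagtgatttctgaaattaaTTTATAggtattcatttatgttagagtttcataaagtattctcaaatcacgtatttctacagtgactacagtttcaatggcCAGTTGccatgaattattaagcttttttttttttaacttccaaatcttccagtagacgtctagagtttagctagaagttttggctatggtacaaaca
Omd: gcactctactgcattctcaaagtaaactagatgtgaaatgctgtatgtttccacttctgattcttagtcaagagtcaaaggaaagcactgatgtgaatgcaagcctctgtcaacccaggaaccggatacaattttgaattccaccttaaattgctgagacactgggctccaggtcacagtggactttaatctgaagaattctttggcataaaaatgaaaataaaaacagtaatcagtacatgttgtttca
Ogn: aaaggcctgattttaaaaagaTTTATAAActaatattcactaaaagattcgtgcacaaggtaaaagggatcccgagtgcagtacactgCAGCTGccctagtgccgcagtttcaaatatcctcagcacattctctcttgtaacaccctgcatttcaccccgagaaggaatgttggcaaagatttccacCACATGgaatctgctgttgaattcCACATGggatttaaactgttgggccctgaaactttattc
Podn: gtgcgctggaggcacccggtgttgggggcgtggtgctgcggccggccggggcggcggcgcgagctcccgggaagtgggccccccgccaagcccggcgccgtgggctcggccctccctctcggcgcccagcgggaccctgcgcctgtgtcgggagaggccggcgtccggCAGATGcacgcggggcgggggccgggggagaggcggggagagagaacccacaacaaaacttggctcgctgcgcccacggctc

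The GC content of these windows was 30.0% for Aspn, 38.4% for Omd, 42.0% for Ogn and 78.0% for Podn, around a median of 52.4% over 32841 promoter windows of that length. Of all windows 1.5% had lower GC than Aspn, 9.0% lower than Omd, 15.9% lower than Ogn and 97.9% lower than Podn. The 3 neighbours thus had AT-rich start regions and Podn a GC-rich one. TATAAA occurred 2 times in Aspn (starting 207 and 178 bases before the start) and 2 times, overlapping on opposite strands, in Ogn (229 and 227), and in 12.4% of all windows. CANNTG occurred once in Aspn, 3 times in Ogn and once in Podn, and in 66.2% of windows. Of the other motifs searched on both strands, GGGCGG (GC box, 32.7% of windows) occurred 2 times in Podn, and TGTGGT (RUNX core, 14.0%) and GGAATG (TEAD, 12.6%) once each in Ogn, the first overlapping an E-box. TGANTCA (AP-1, 6.8% of windows) was in none of the 4 windows, and Omd's window held none of the 6 motifs. Promoter windows were matched for 8 of the 10 members.

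Among the 16 libraries the members fell into loosely parallel sets, given here as Spearman correlations of log2 CPM without a test, since the libraries share their groups and their depth range. Aspn ran with Omd (0.87) and Ogn (0.77), and Ogn with Omd (0.76). Fmod ran with Podn (0.89), Prelp (0.84) and Bgn (0.80), and Prelp with Podn (0.76). Lum was at -0.27 to Podn, -0.003 to Aspn, 0.26 to Bgn and 0.39 to Ogn, its highest. Once each group's mean was taken away, Lum ran with Aspn (0.74) and Ogn (0.76), so within a group libraries high in asporin tended to be high in lumican.

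**Figure D4:**
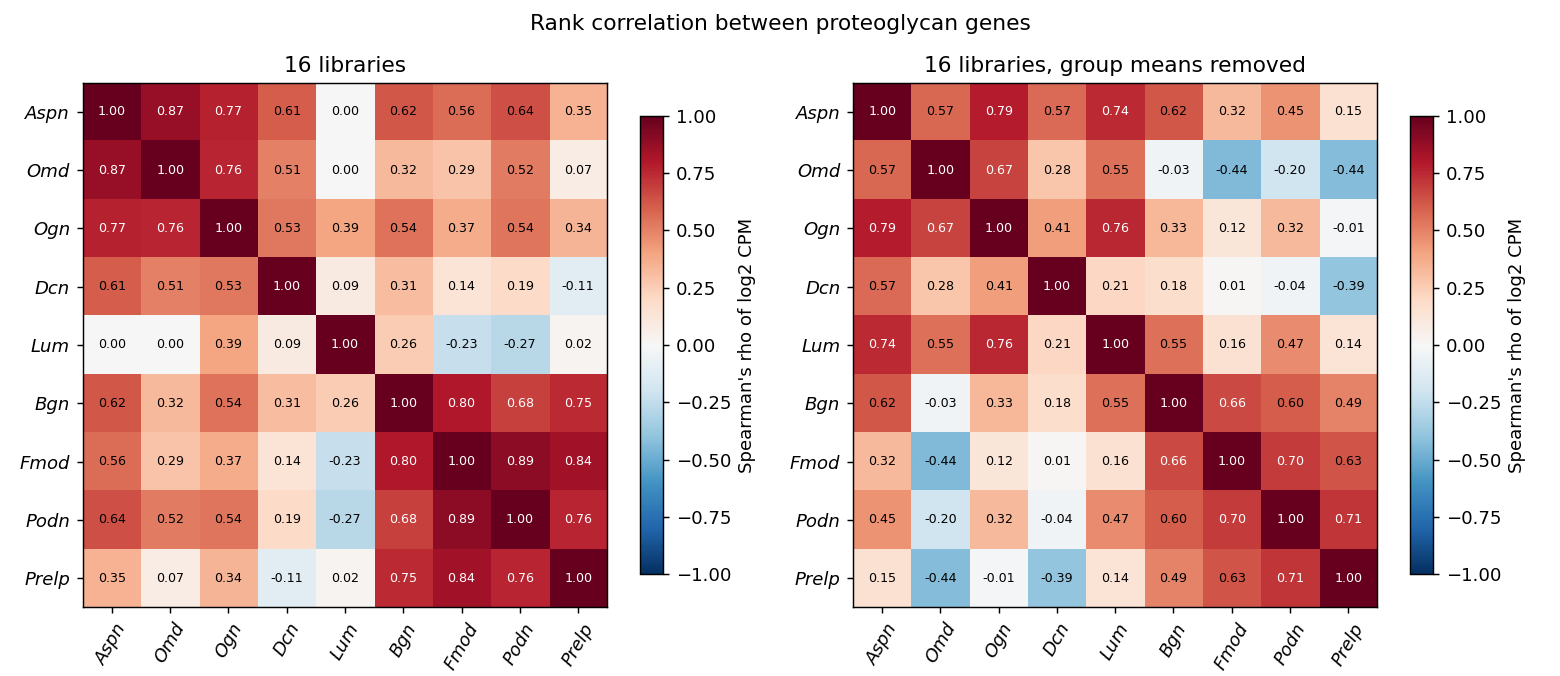
Spearman correlations of log2 CPM between 9 members (both axes) over 16 libraries, with group means kept (left) and after the mean of each group was removed (right), on a colour scale from -1 to 1. Aspn and Omd are at 0.87 on the left, and Lum and Aspn go from about 0 on the left to 0.74 on the right.

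The genes other than the 10 members most alike to each member over the 16 libraries were drawn from 11083 well-expressed genes. For Aspn they were Ankrd29 (0.94), Gatm and Itm2a (both 0.93), for Omd Lrig3 and Shox2 (both 0.94) and Luc7l2 (0.89), and for Ogn Akr1c14 (0.96), Ift81 (0.91) and Abcg3 (0.90). For Podn they were Gpc4 (0.94), Cntfr and App (both 0.93), and for Fmod Plscr4 (0.95), Slc44a2 (0.93) and Clec4a1 (0.92). For Lum they were Abl2 (0.94), Zfp281 (0.87) and Uhrf2 (0.86), for Dcn Glt8d1 (0.91), Ppic (0.90) and Fcgrt (0.89). For Bgn they were Ecm2 (0.92), which is one of the other SLRP genes, Thbs3 (0.90) and Siae (0.88), and for Prelp Edc4 (0.96), Safb (0.94) and Mau2 (0.94). The values are the highest of many and are Spearman correlations without a test.

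The genes that SLRPs work with were described from lists by their average ligature effect, beside 10.8% of all genes passing as higher and 10.7% as lower. Of 13 collagens that form or coat fibrils, 3 were higher and 4 lower. Col1a1 and Col1a2, the chains of type I collagen that make the main ligament fibrils, were lower by -0.86 ± 0.18 and -0.96 ± 0.18 on the log2 scale, and Col12a1, a fibril-surface collagen, and Col5a3 were higher by 1.321 ± 0.18 and 1.89 ± 0.30 (SE, adjusted p = 0.00298, 0.00135, 0.000117 and 0.000399 by edgeR). The list's median was -0.20 against -0.05 over all genes.

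Of 12 proteases known to cleave SLRPs, 5 were higher and 1 lower, with a median of 0.94. Mmp3, stromelysin, went from 1.12 ± 0.59 CPM in control and 4.0 ± 4.11 in trauma to 1005 ± 254 in ligature and 672 ± 292 in ligature plus trauma (SD, n = 4). Mmp13, a collagenase, was higher by 2.28 ± 0.40, Mmp9, a gelatinase, by 1.89 ± 0.23 and Adamts4, an aggrecanase, by 1.64 ± 0.29 on the log2 scale (SE, adjusted p = 0.000898, 6.29e-05 and 0.00089 by edgeR). Mmp2 and Mmp14 were at -0.29 and -0.03 and did not pass. These are transcript levels, and cleavage of the proteins was not measured.

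Among 14 receptors and growth factors that SLRPs bind, 1 was higher and 3 lower. Tgfb2, a form of transforming growth factor beta, was lower by -1.42 ± 0.16 and Tgfb1 by -0.68 ± 0.23 on the log2 scale, and Lrp1, an endocytic receptor for decorin, was higher by 0.77 ± 0.15 (SE, adjusted p = 3.22e-05, 0.0479 and 0.0016 by edgeR). Ccn4, a matricellular protein that decorin and biglycan bind, was lower by -0.56 ± 0.17 (SE, adjusted p = 0.0242 by edgeR). Tlr2 and Tlr4, receptors of free biglycan, were at 0.48 and 0.38 and did not pass.

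Few enzymes that build the sugar chains passed. Of 21 dermatan and chondroitin sulfate enzymes, 2 were higher and 1 lower. B4galt7 and B3gat3, enzymes of the linker to the core protein, were both higher at 0.58 on the log2 scale. Ust, a sulfotransferase, was lower at -0.70. The 7 tested keratan sulfate enzymes had adjusted p of 0.0521 to 0.574 by edgeR. Of 8 other SLRP genes, Tsku (0.84) and Podnl1 (0.82) were higher and Chadl (-0.90) lower on the log2 scale, all at low levels of 1.53 to 65.9 CPM in group means, and the other 5 did not pass.

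In whole tissue, fewer cells of a type and less RNA per cell cannot be told apart, and markers of several cell types moved with the members. Of 6 ligament and tendon markers 3 were lower by the average ligature effect and 3 did not pass, Thbs4 at -2.96 ± 0.26 and Tnmd, the tendon gene tenomodulin, at -1.57 ± 0.21 on the log2 scale (SE, adjusted p = 5.17e-06 and 0.000117 by edgeR). The 6 summed to 6949 to 32806 CPM without and 9165 to 27179 with a ligature, and Egfl6 was at 0 in some libraries. Of 8 general fibroblast markers 3 were higher (Vim, Dpt and Thy1) and 5 did not pass, and their sum of 948 to 1837 CPM without and 2202 to 4200 CPM with a ligature did not overlap. Of 8 bone cell markers 4 were lower, their sum overlapping at 5388 to 11313 against 7160 to 11666 CPM, with Sost at 0 in some libraries. These sums rest largely on single genes and say little about the other markers. In ligature, Postn held 14999 of the mean 15217 CPM of the ligament sum. Vim held 2357 of 2856 CPM for fibroblasts and Ibsp 7846 of 9022 for bone.

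Other cell types also differed. All 9 oral epithelium markers were lower, summing to 1237 to 26957 CPM without and 702 to 2402 CPM with a ligature, with Krt4 and Krt1 at 0 in some libraries. Of 7 leukocyte markers 5 were higher, at 863 to 1864 against 2000 to 3052 CPM, with Cd3e and Cd79a at 0 in some libraries, and all 4 endothelial markers were higher, at 111 to 238 against 397 to 534 CPM. Of 6 cartilage markers 3 were lower, at 20.3 to 53.1 against 7.59 to 23.2 CPM (median log2 effect -1.48), with Col2a1, Comp and Matn3 at 0 in some libraries, and of 4 Schwann cell markers 3 were lower, at 83.5 to 236 against 65.9 to 177 CPM (median -0.82). All 6 skeletal muscle markers had positive effects (median 3.53) and 2 passed as higher, at 3.02 to 123 against 5.91 to 743 CPM, the highest in ligature 2, with Ckm, Myh4 and Myh1 at 0 in some libraries. Of 3 mural cell markers 1 was higher, Acta2, a smooth muscle actin, with sums of 120 to 253 against 229 to 605 CPM. Neither of the 2 odontoblast and pulp markers passed, at 70.1 to 3108 against 87.9 to 1727 CPM. The part of these cell types in the lower Aspn, Omd, Ogn, Podn and Fmod and in the different make-up was not tested.

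**Figure D5:**
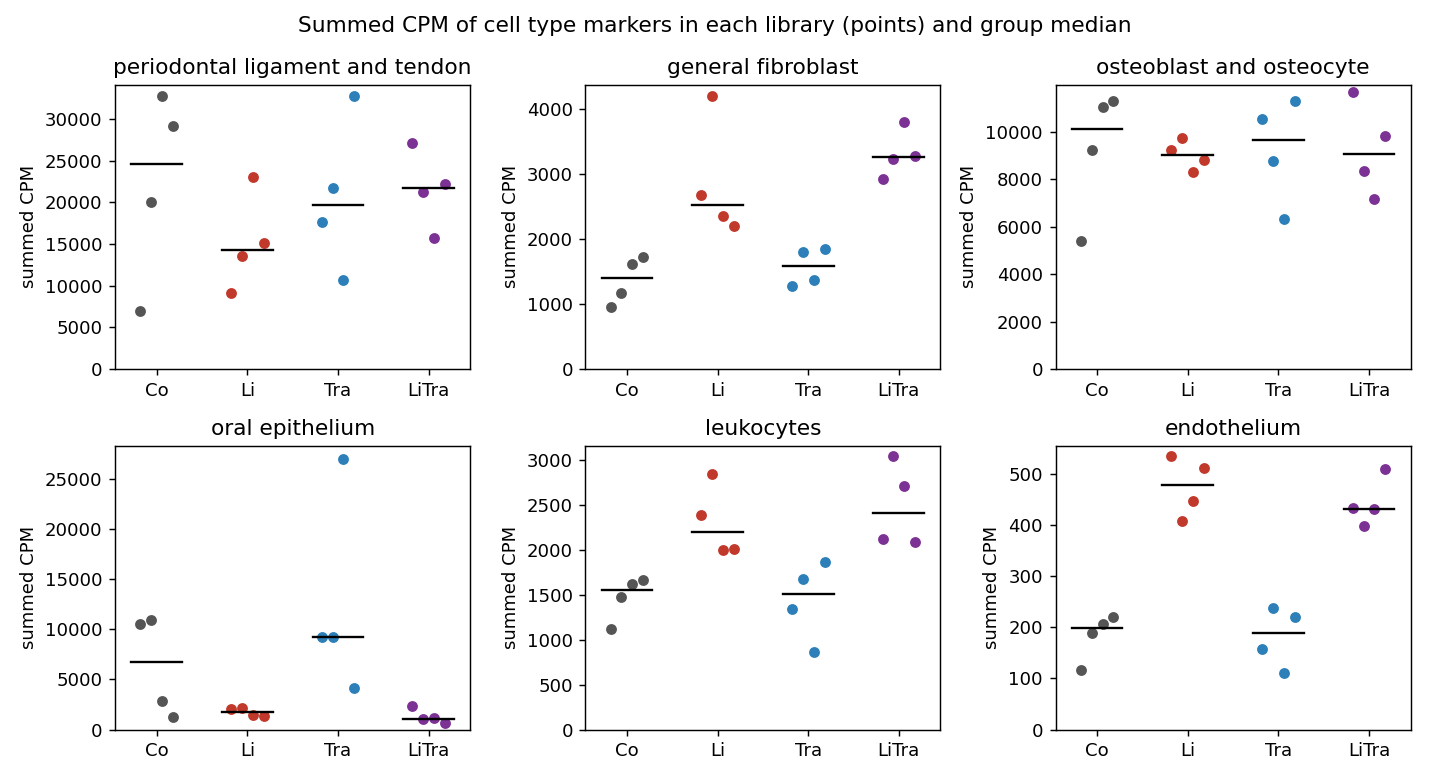
Summed CPM of marker genes of 6 cell types (y axis, from 0) in the Co, Li, Tra and LiTra groups (control, ligature, trauma and both), with points for libraries and lines for group medians. Fibroblast, leukocyte and endothelial sums are higher in all 8 libraries with a ligature than in all 8 without one, and the ligament and bone sums overlap. Postn, Vim, Ibsp and Lyz2 make up most of the control means of the ligament, fibroblast, bone and leukocyte sums.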

How the data were processed

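The authors deposited whole-number read counts per gene for 16 libraries, not normalised. Per the submitters' processing notes, the build was GRCm39 and the tools were HISAT2 2.2.1, StringTie 2.1.7, DESeq2 1.32.0, Trimmomatic 0.39 and FastQC 0.11.9 (roles not stated), and per the labels' protocols libraries were poly(A)-enriched. Not given in the sources used here: the counting tool, its strand setting and the annotation release. The deposited counts were tested with edgeR 4.0.16 in R 4.3.3: TMM scaling, filterByExpr (minimum count 10), 1 fit of all 16 libraries with 12 residual degrees of freedom, a quasi-likelihood test and Benjamini-Hochberg adjustment over 20953 genes, with a threshold of 0.05. The analysis was tested on simulated data with the same spread for every gene. No simulated library was shifted to short transcripts, so that test cannot speak for such libraries. DESeq2 1.42.0 and limma-voom (limma 3.58.1) were alternatives. CPM uses TMM-scaled totals. Lengths (main transcript: APPRIS principal) and overlaps came from GENCODE M21 (GRCm38), and symbols were found for 52083 of 55359 identifiers. Spearman correlations used log2 CPM with a prior count of 2, over genes with a mean of at least 2. Intervals are at 95%. All 10 members were named, with up to 4 genes per list, by lowest p of the average ligature effect. Mmp2, Mmp14, Tlr2 and Tlr4 were named after their values were seen. Members and lists were chosen with earlier results of these data known. The libraries' total counts, from 58458102 to 77468584, make counting error small beside the spread between libraries except for Kera.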

Additional observations from a re-analysis of the deposited data

Results flagged for a closer look

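In each group of 4 libraries, the highest or lowest library of every member was compared with the rest. By Dixon's criterion, which chance alone meets in about 1 in 20 groups, 6 of the 40 groups held a library far from the others. Kera in control was 0 throughout and could not be examined. That chance rate does not hold for Kera in ligature or trauma, where the rest of the group was at 0. Aspn in ligature 3 was at 6300.15 CPM against 2794 to 3366 in the rest of its group. Ogn in trauma 3 was at 259.156 CPM, below the 575 to 598 of the other 3 trauma libraries. Prelp in control 1 was at 101.568 CPM against 38.2 to 44.1, in the library that was also lowest in ligament markers. Podn in ligature plus trauma 1 was at 16.4372 CPM against 2.72 to 3.30. Kera was at 0.48319 CPM in ligature 4 and 0.1343 CPM in trauma 1, each the only library of its group with any count.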

How the results depend on the processing

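Members passing for ligature against control numbered 4 as reported and 2 when only the compared groups entered the fit, with 2 to 4 when each library was left out in turn. For ligature plus trauma against trauma the number was 0 as reported, 4 by DESeq2, 1 with the replicate number as a block, 1 by limma-voom, 2 with each library's length slope as a covariate and 1 in the 12 libraries chosen after seeing the data, with 0 to 2 on leaving out each library. For ligature plus trauma against control it was 3 as reported, 5 by DESeq2, 0 with the length slope and 0 in the 13 libraries without those shifted to short transcripts, with 1 to 4 on leaving out each library. The average ligature effect gave 4 to 6 members under all alternatives (6 by DESeq2, with Lum, and without trauma 1, with Kera). These counts take both directions together: in the 13 libraries Aspn, Omd and Podn passed as lower and Lum as higher. The trauma comparisons and the interaction gave 0. Of the single results of each member in each comparison, 1975 kept their call, whatever the sign of a value that did not pass, 39 lost a call, 23 gained one and 0 called values changed sign; the cause of these changes was not tested.

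Over the whole table the genes passing for ligature against control went from 2234 to 3698 by DESeq2 and 1369 with only the compared groups, and to 1430 at the lowest on leaving out a library (ligature 1). For ligature plus trauma against trauma they went from 1149 to 2098 by DESeq2, 1979 with the length slope, 403 in 13 and 473 in 12 libraries, and 565 to 1525 on leaving out a library. The average ligature effect went from 4515 to 2991 in 13 and 2818 in 12 libraries. Ligature plus trauma against control went from 2609 to 4240 by DESeq2, 1254 with the length slope, 743 in 13 and 539 in 12 libraries, and 1022 to 4332 on leaving out a library. By DESeq2, 114 genes passed for trauma against control, 31 for ligature plus trauma against ligature, 59 for the average trauma effect and 51 for the interaction. In the other alternatives these 4 gave 0 to 3 genes.

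Over 24 pairs of libraries of the same number, the correlation of deviations ran from -0.519 to 0.547 with a median of 0.121. Over 72 pairs of different number it ran from -0.739 to 0.643 with a median of -0.00134. Of 16 libraries, 5 correlated best with their own number. This check cannot exclude a pairing. The numbers were not read as pairs in the main fit. With the replicate block 4 members passed for ligature against control, 5 for the average ligature effect and 2 for ligature plus trauma against control. Depth limits only Kera, whose counts were at most 56.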
